A study of Mus musculus with 8 samples.

Results

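Wnt signalling was followed through 10 genes in mouse epiblasts at embryonic day 5.5: the ligands Wnt3 and Wnt7b, the secreted inhibitor Sfrp1, the effector Ctnnb1, the transcription factors Lef1, Tcf7, Tcf7l1 and Tcf7l2, and the feedback targets Axin2 and Sp5. They were taken by symbol from the 52636 Ensembl identifiers of the count table, as a list of pathway genes chosen with earlier results of these data known, and all 10 passed the filter on low counts that left 18321 genes for testing. RNA was sequenced from 8 libraries, each prepared from 7 ng of RNA of 10 pooled epiblasts. Every embryo, controls included, had the genotype Sox2Cre;CRAFR26, in which Cre recombinase under the control of Sox2 acts in the epiblast lineage and the inducible RAF construct cRAFR26 starts ERK signalling when 4-hydroxytamoxifen (4OHT) is given. The embryos derive from 2 clones of the targeted line, clone 4 and clone 8, and were kept in IVC2 medium with 250 nM 4OHT for 4 h or with ethanol vehicle, after which the extraembryonic layers were cut away. Each clone and condition has 2 libraries, which are separate pools only as far as the labels number them as replicates, so that p-values measure the spread between these libraries. The labels of the vehicle libraries give both 0 h and 4 h in ethanol, so that 4 h of culture may be part of the comparison. No group lacks the construct, and an effect of 4OHT itself cannot be told apart from that of the induced kinase.

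Wnt proteins are secreted ligands that bind Frizzled receptors with Lrp5 or Lrp6 and prevent the breakdown of β-catenin. β-catenin then enters the nucleus and binds TCF and LEF proteins on DNA, which turns on target genes, among them Axin2 and Sp5, whose products dampen the same pathway. In the early post-implantation embryo, Wnt3 made in the epiblast and the adjacent visceral endoderm is needed to form the primitive streak, while the anterior visceral endoderm secretes inhibitors, and the extraembryonic ectoderm expresses ligands of its own.

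TCF and LEF proteins read the letters CTTTG followed by AA, AT, TA or TT, which were searched on both strands in the 250 bases before each RefSeq transcription start (GRCm38.p6). None of these motifs contains another, and 14.8% of 32851 such windows in the genome table hold at least 1 match. Windows were found for 8 of the 10 genes, all but Wnt7b and Sfrp1. Of their 14 windows 3 held a match, namely that of Sp5 and 1 of several windows each of Lef1 and Tcf7l2. The windows of the feedback targets Sp5 and Axin2 and the most upstream window of Lef1 are shown 5′ to 3′ on the plus strand, because these genes are the textbook targets and their starts differ in these letters; capitals mark the matches. The Sp5 window lies at chr2:70474673-70474922, that of Axin2 at chr11:108920099-108920348 and that of Lef1 at chr3:131110047-131110296.
Sp5: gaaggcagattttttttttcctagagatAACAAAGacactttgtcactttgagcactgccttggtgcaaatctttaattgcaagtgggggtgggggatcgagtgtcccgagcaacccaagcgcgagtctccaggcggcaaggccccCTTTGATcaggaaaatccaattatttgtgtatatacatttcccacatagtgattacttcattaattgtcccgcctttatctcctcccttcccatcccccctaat
Axin2: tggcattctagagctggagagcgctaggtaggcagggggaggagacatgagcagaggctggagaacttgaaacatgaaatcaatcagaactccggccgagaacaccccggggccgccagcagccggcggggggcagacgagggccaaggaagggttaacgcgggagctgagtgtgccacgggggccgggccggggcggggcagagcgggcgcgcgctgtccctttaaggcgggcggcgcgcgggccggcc
Lef1: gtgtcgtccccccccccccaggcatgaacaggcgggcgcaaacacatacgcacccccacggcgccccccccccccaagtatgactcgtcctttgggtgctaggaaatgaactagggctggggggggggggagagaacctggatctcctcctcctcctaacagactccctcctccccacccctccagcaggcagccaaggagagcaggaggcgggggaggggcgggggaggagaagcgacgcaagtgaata
The first match in Sp5, AACAAAG, starts 222 bases before the transcription start and reads on the other strand, and the second, CTTTGAT, starts 104 bases before it. The Axin2 and Lef1 windows shown hold none of these letters, and are richer in G and C, at 69.2% and 66.4%, than that of Sp5, at 46.0%. A match is a run of letters and not a measured binding site, and sites outside the window were not searched.

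Depth ran from 33.3 to 38.0 M (mega) counts in vehicle and from 56.4 to 72.5 M in 4OHT libraries. The 10 epiblast markers, among them Pou5f1 and Sox2, summed to 2101 to 2992 CPM (counts scaled per mega of library size) in every library with none at 0, and markers of the removed layers were also present: the 18 visceral endoderm genes summed to 1389 to 5432 CPM, and 15 extraembryonic ectoderm genes to 262 to 797 CPM. The pair of clone 8 vehicle libraries stood apart, with the lowest extraembryonic ectoderm sums, at 262 and 291 CPM. In bulk tissue, fewer cells of a type and less RNA per cell cannot be told apart. Among 12 ERK target genes 5 rose and 1 fell after 4OHT in clone 8 by edgeR, where 16.6% of all genes were called. These calls were lost without vehicle clone 8 replicate 1, while calls remained without replicate 2. Either fit leaves 1 library in that group. In clone 4, 0 passed the test by edgeR and 2 by DESeq2, which called 468 of 18321 genes there. There 3 of the 12 had an unadjusted p under 0.05 by edgeR, against 9.9% of all genes. Their median log2 fold change in clone 4 was 0.09, with 8 positive and 4 negative values, among the latter Fos (-0.66) and Fosl1 (-0.59). Egr1, an immediate early factor, had the largest value in clone 4, 2.32 (edgeR adjusted p 0.234). It stood at 8.05 and 18.2 CPM in clone 4 vehicle and at 55.4 and 75.9 CPM in clone 4 4OHT libraries.

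Compared per kilobase (kb) of exon, over the 8 libraries, Ctnnb1 had the highest RNA level of the 10 genes, at 27.1 ± 3.87 CPM per kb (SD, n = 8). Tcf7l1 followed at 17.5 ± 7.33, then Wnt7b at 11.0 ± 5.81, Tcf7l2 at 10.1 ± 2.17, Sfrp1 at 9.49 ± 2.80, Tcf7 at 7.30 ± 3.60, Lef1 at 6.66 ± 1.06, Wnt3 at 4.33 ± 1.99, Sp5 at 3.11 ± 1.59 and Axin2 at 1.74 ± 0.523 CPM per kb. The ranges of every neighbouring pair in this order overlapped, so that only distant ranks are separated. Lef1 and Ctnnb1 varied least between libraries, and Sp5 varied most, by 19.9-fold from its lowest to its highest library.

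**Figure D1:**
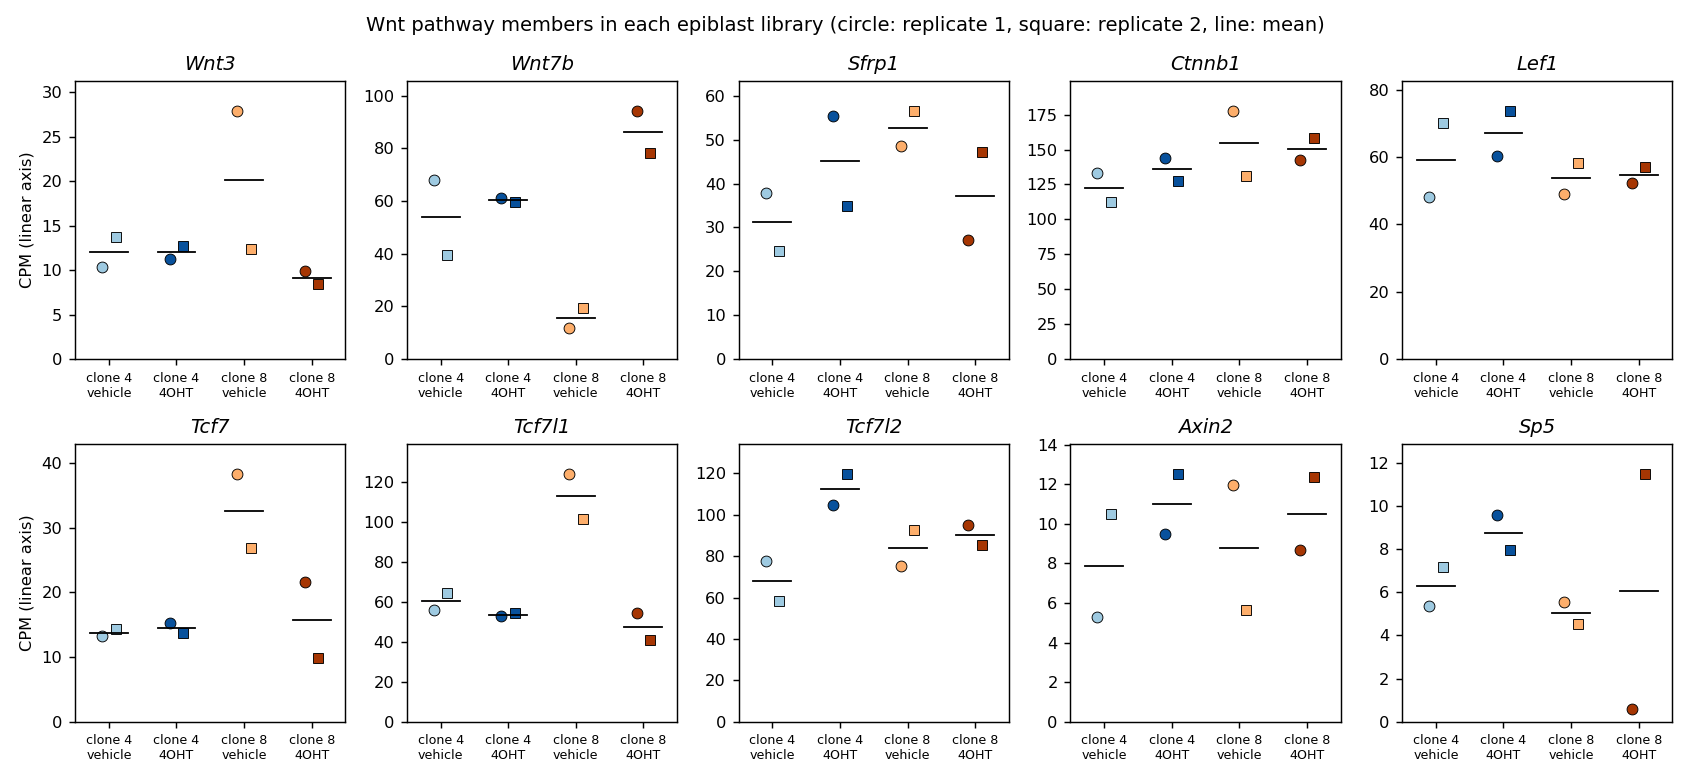
RNA level of the 10 Wnt pathway genes in CPM on linear axes that start at 0, with 1 point per library and a line at each group mean (n = 2). Wnt7b is lowest and Tcf7 and Tcf7l1 are highest in the clone 8 vehicle libraries, and the pair of clone 8 4OHT libraries differs most for Sp5.

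The question was which of these genes changed after 4 h of 4OHT in each clone. In clone 8, Wnt7b rose 5.52-fold and Tcf7l1 fell to 0.421 of its vehicle level, and the other 8 genes did not pass the test. In clone 4 none passed. By edgeR's quasi-likelihood test, with a threshold of 0.05 on p-values adjusted over all 18321 genes, the counts are 1 member higher and 1 lower of 10 in clone 8, where 16.6% of all tested genes were called, 8% higher and 8.6% lower. The members' share is thus near the background of that clone. In clone 4 the count is 0 of 10, where 0.0382% of all genes were called. At an unadjusted p under 0.05 it is 1 member of 10, against 9.9% of all genes. DESeq2 called 1 there, against 468 of 18321 genes. The median log2 fold change of the 10 was 0.17 in clone 4 and -0.01 in clone 8, against 0.00 and 0.07 over all tested genes.

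**Figure D2:**
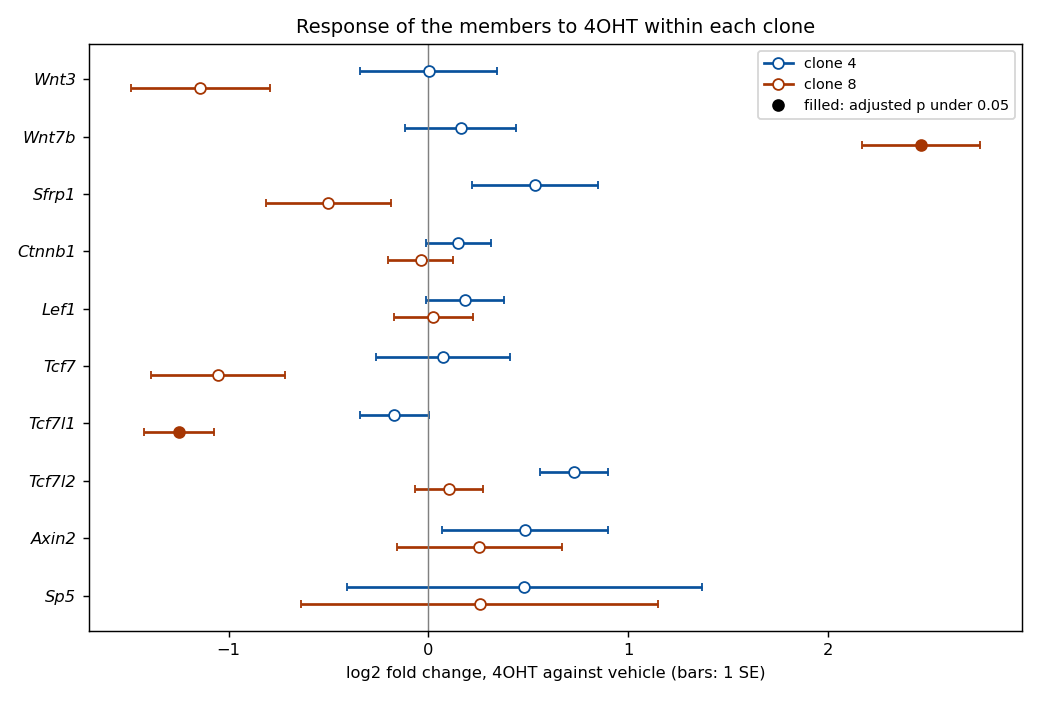
Log2 fold change of each of the 10 genes after 4OHT within clone 4 and clone 8 (points, bars 1 SE, 2 libraries against 2), with filled points at an adjusted p under 0.05. Wnt7b at 2.47 and Tcf7l1 at -1.25, both in clone 8, are the filled points. The difference of response between the clones passed the test for Wnt7b alone.

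Wnt7b (chr15:85535437-85582473, minus strand, mm10) encodes a ligand of the canonical pathway that is expressed in extraembryonic ectoderm. It stood at 68.0 and 39.6 CPM in clone 4 vehicle and at 61.0 and 59.5 CPM in clone 4 4OHT libraries, and at 11.8 and 19.5 CPM in clone 8 vehicle and 94.3 and 78.2 CPM in clone 8 4OHT libraries. The clone 8 vehicle libraries were thus the lowest of all 8 and the clone 8 4OHT libraries the highest, with no overlap in that clone, as for 60% of tested genes in either direction; in clone 4 the conditions overlapped. In log2 units the change was 2.47 (SE 0.30, 95% interval 1.80 to 3.13, adjusted p 0.00699) in clone 8 and 0.16 (SE 0.28, interval -0.46 to 0.79, adjusted p 0.910) in clone 4. The difference between the clones' responses, tested as an interaction, was 2.30 (SE 0.40, adjusted p 0.0331), the 1 call among the 10 genes, where 2.83% of all genes were called, 1.08% higher and 1.75% lower. The clones already differed in vehicle, where Wnt7b was lower in clone 8 by a log2 value of -1.79 (SE 0.29, adjusted p 0.0198). Both that comparison and the clone 8 response use the same clone 8 vehicle libraries.

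Limits of the Wnt7b result lie in single libraries and in the tissue. Without vehicle clone 8 replicate 1, the clone 8 value was 2.13 with an adjusted p of 0.0749, in a fit in which edgeR called 0 of 18321 genes in clone 8 instead of 3041 (3717 at an unadjusted p under 0.05). The call of the difference between clones was lost without each of the 4 clone 4 libraries and without vehicle clone 8 replicate 1, at values of 1.83 to 2.61 and adjusted p of 0.0556 to 0.140. The vehicle difference was lost without vehicle clone 4 replicate 1 (-1.33, adjusted p 0.125) and without vehicle clone 8 replicate 1 (-1.45, adjusted p 0.184).

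The summed level of the other 15 extraembryonic ectoderm markers was also lowest in the clone 8 vehicle libraries. It was 797 and 544 CPM in clone 4 vehicle, 683 and 700 CPM in clone 4 4OHT, 262 and 291 CPM in clone 8 vehicle and 770 and 655 CPM in clone 8 4OHT libraries, with overlap among the other groups. In clone 8, 8 of the 15 rose and 1, Furin, fell by edgeR, while 6 did not pass. Of all genes, 8% were called higher and 8.6% lower there. The median log2 fold change of the 15 was 1.25. The calls were lost without vehicle clone 8 replicate 1, while calls remained without replicate 2. Either fit leaves 1 library in that group. In clone 4 edgeR called 0 of the 15 (0.0382% of all genes). DESeq2 called 2 there, both lower, against 468 of 18321 genes. There 3 had an unadjusted p under 0.05 by edgeR, against 9.9% of all genes. The median in clone 4 was 0.30, with 12 positive and 3 negative values. Elf5, a defining transcription factor of that tissue, stood at 16.4 and 24.3 CPM in clone 8 vehicle and at 61.1 and 89.8 CPM in clone 8 4OHT libraries. Hand1, a trophoblast factor, stood at 11.1 and 9.61 and at 50.6 and 39.1 CPM in the same libraries. In clone 4 the log2 fold change was 0.36 for Elf5 and -1.31 for Hand1 (edgeR adjusted p 0.754 and 0.290). None of the 15 was at 0 in any library. The part of this tissue in the Wnt7b values was not tested.

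**Figure D3:**
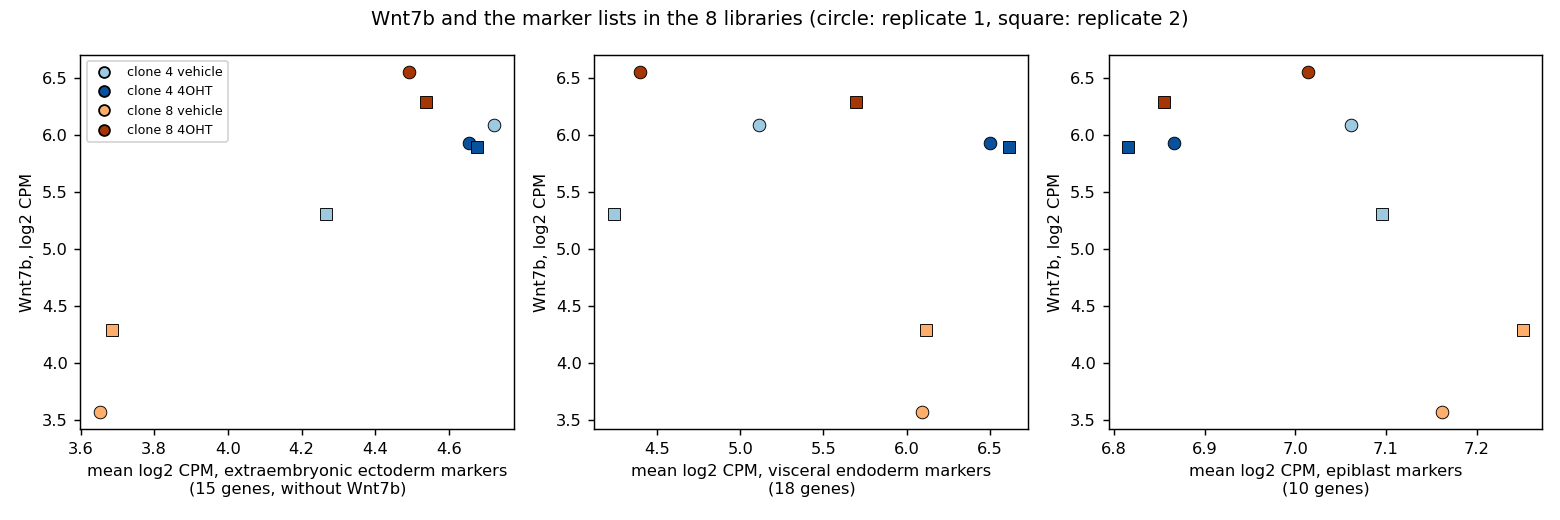
Wnt7b level (y axis, log2 CPM) against the mean log2 CPM of 15 extraembryonic ectoderm markers without Wnt7b, 18 visceral endoderm markers and 10 epiblast markers (x axes), with 1 point per library. The clone 8 vehicle libraries are lowest for both Wnt7b and the extraembryonic ectoderm markers, while in the visceral endoderm plot they lie between the other groups.

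Wnt3 (chr11:103774150-103817957, plus strand) encodes the ligand required for the primitive streak. Its level was 10.3 and 13.7 CPM in clone 4 vehicle, 11.3 and 12.8 CPM in clone 4 4OHT, 27.9 and 12.3 CPM in clone 8 vehicle and 9.85 and 8.39 CPM in clone 8 4OHT libraries. Clone 8 vehicle replicate 1 was far above the other 7 libraries. The conditions did not overlap in clone 8, as for 60% of tested genes in either direction. For clone 8 the fitted log2 value was -1.14 (SE 0.35, 95% interval -1.92 to -0.36), with an adjusted p of 0.0518 that just missed the threshold, and in clone 4 it was 0.00 (interval -0.77 to 0.77). Without vehicle clone 8 replicate 1 the value in clone 8 was -0.46, with an adjusted p of 0.375, while 6 of the 16 alternatives for this value, DESeq2 among them (adjusted p 0.00366), called it lower. The difference between clones, -1.14, did not pass either (adjusted p 0.205). The 10 primitive streak markers tested other than Wnt3 had a median log2 fold change of 0.04 in clone 4 and 0.34 in clone 8. Tbxt, the streak factor also counted as a Wnt target and named here after its values were seen, stood at 10.3 and 3.34 CPM in clone 8 vehicle and at 7.64 and 39.7 CPM in clone 8 4OHT libraries, with overlap (unadjusted p 0.0337, adjusted p 0.117).

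Sfrp1 (chr8:23411502-23449632, plus strand) encodes a secreted Frizzled-like protein that binds Wnt ligands. It stood at 37.8 and 24.5 CPM in clone 4 vehicle and 55.4 and 34.9 CPM in clone 4 4OHT libraries, which overlap. In clone 8 it stood at 48.5 and 56.6 CPM in vehicle and 27.2 and 47.1 CPM in 4OHT libraries. These do not overlap, as for 60% of tested genes in either direction. The log2 fold changes had opposite signs, 0.53 (SE 0.31, adjusted p 0.659) in clone 4 and -0.50 (SE 0.31, adjusted p 0.298) in clone 8. Their difference of -1.03 (SE 0.44) did not pass (adjusted p 0.208).

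Ctnnb1 (chr9:120929216-120960507, plus strand) encodes β-catenin, whose activity is set mainly by protein stability, which RNA counts do not measure. Its level was 133 and 112 CPM in clone 4 vehicle, 144 and 128 CPM in clone 4 4OHT, 178 and 131 CPM in clone 8 vehicle and 142 and 158 CPM in clone 8 4OHT libraries. The conditions overlapped in both clones. The 95% intervals of the log2 fold change, -0.22 to 0.52 in clone 4 and -0.41 to 0.33 in clone 8, leave out a doubling or a halving of its RNA in either clone.

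Of the 4 transcription factors, Tcf7l1 in clone 8 was the 1 that passed the test; Tcf7 in clone 8 and Tcf7l2 in clone 4 passed it under 6 and 2 of 16 alternatives. Tcf7l1 (chr6:72626378-72789254, minus strand), also known as Tcf3, acts mainly as a repressor of Wnt targets and of pluripotency genes. It stood at 55.9 and 64.4 CPM in clone 4 vehicle and 52.7 and 54.2 CPM in clone 4 4OHT libraries, and at 124 and 101.5 CPM in clone 8 vehicle and 54.2 and 40.8 CPM in clone 8 4OHT libraries. It was the 1 member whose 4 4OHT libraries all lay below all 4 vehicle libraries, as did 5.58% of tested genes, although in clone 4 the gap between the conditions was small. The clone 8 vehicle libraries were the highest of the 8. Tcf7l1 changed on the log2 scale by -1.25 (SE 0.17, 95% interval -1.64 to -0.86, adjusted p 0.00834) in clone 8 and had -0.17 (SE 0.17, interval -0.56 to 0.22, adjusted p 0.825) in clone 4.

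The difference between the clones' Tcf7l1 responses, -1.08 (SE 0.24), missed the threshold with an adjusted p of 0.0512. In vehicle, Tcf7l1 was higher in clone 8 than in clone 4 by 0.91 (SE 0.17, adjusted p 0.0239), which with Wnt7b makes 1 member higher and 1 lower of 10, where 8.37% of all genes were called, 4.06% higher and 4.31% lower. Without vehicle clone 8 replicate 1 the clone 8 response was -1.12 with an adjusted p of 0.0756, and the vehicle difference was 0.77 with an adjusted p of 0.188. The latter was also lost without each clone 4 library, with adjusted p of 0.0515 to 0.144. Of the 10 epiblast markers, 0 rose and 4 fell in clone 8, where 8% of all genes were called higher and 8.6% lower. Their median log2 fold change was -0.41 in clone 8 and -0.11 in clone 4. In clone 4 edgeR called 0, with 4 at an unadjusted p under 0.05 against 9.9% of all genes. Their sums were highest in the clone 8 vehicle libraries, at 2861 and 2992 CPM. The part of these markers in the Tcf7l1 values was not tested.

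Tcf7 (chr11:52252371-52283014, minus strand) encodes TCF1, a factor that activates targets together with β-catenin. Its 13.3 and 14.3 CPM in clone 4 vehicle and 15.3 and 13.7 CPM in clone 4 4OHT libraries overlapped. In clone 8 it stood at 38.4 and 26.9 CPM in vehicle and at 21.6 and 9.83 CPM in 4OHT libraries, and as for Tcf7l1 the vehicle pair was the highest of the 8 libraries. In clone 8 the fitted log2 value was -1.05 (SE 0.33, 95% interval -1.81 to -0.30) with an adjusted p of 0.0594, and the vehicle libraries of clone 8 exceeded those of clone 4 by 1.24 (SE 0.34, adjusted p 0.0533). Both values lie just outside the threshold, and the difference between responses, -1.13, had an adjusted p of 0.200.

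Tcf7l2 (chr19:55741820-55933654, plus strand) encodes TCF4, which can activate or repress targets. It stood at 77.6 and 58.1 CPM in clone 4 vehicle and 104.9 and 119.9 CPM in clone 4 4OHT libraries, and at 75.2 and 92.7 CPM in clone 8 vehicle and 94.9 and 85.3 CPM in clone 8 4OHT libraries. The conditions were separate in clone 4, as for 47.5% of tested genes, and overlapped in clone 8. Its log2 fold change of 0.73 (SE 0.17, 95% interval 0.34 to 1.11) in clone 4 had an unadjusted p of 0.00202 and an adjusted p of 0.166, and DESeq2 gave an adjusted p of 0.00720. In clone 8 the value was 0.10 (interval -0.28 to 0.49), and the difference between clones did not pass (-0.63, adjusted p 0.172).

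Lef1 (chr3:131110471-131224356, plus strand), an activating partner of β-catenin that is often itself a Wnt target, varied little. It stood at 48.1 and 70.0 CPM in clone 4 vehicle, 60.3 and 73.7 CPM in clone 4 4OHT, 49.0 and 58.3 CPM in clone 8 vehicle and 52.2 and 56.9 CPM in clone 8 4OHT libraries. The conditions overlapped in both clones, and the 95% interval of its log2 fold change was -0.26 to 0.63 in clone 4 and -0.42 to 0.47 in clone 8.

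The 4 factors share partners and motifs, and their RNA was therefore also set against their sum per kb of exon. Tcf7l1 made up 42.4% to 45.0% of this sum in clone 4 vehicle and 33.6% to 35.3% in clone 4 4OHT libraries, and 48.5% to 52.4% in clone 8 vehicle and 34.3% to 35.6% in clone 8 4OHT libraries. Tcf7l2 went from 18.2% to 26.3% in clone 4 vehicle to 31.4% to 33.3% in clone 4 4OHT libraries, and from 14.2% to 19.8% to 27.9% to 32.0% in clone 8. The share of Tcf7l1 was thus lower, and that of Tcf7l2 higher, in each 4OHT library than in each vehicle library of both clones. No test was run on the shares, which rest on the same counts as the values above, and a share of one factor must fall when another rises.

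**Figure D4:**
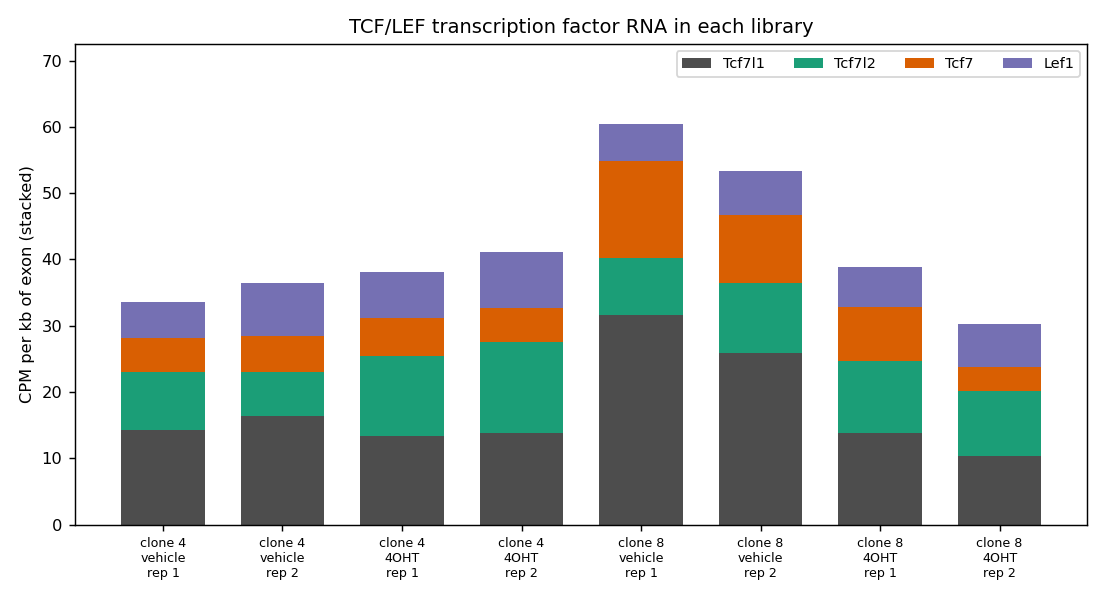
Stacked RNA level of Tcf7l1, Tcf7l2, Tcf7 and Lef1 in each library, in CPM per kb of exon on a linear axis that starts at 0. The stack is tallest in the clone 8 vehicle libraries, where Tcf7l1 alone stands at 31.7 and 25.9 CPM per kb.

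The feedback targets Axin2 and Sp5 are the usual readout of the pathway, and neither passed the test. Axin2 (chr11:108920349-108950783, plus strand), a scaffold of the complex that destroys β-catenin, stood at 5.27 and 10.5 CPM in clone 4 vehicle, 9.51 and 12.5 CPM in clone 4 4OHT, 11.96 and 5.63 CPM in clone 8 vehicle and 8.65 and 12.4 CPM in clone 8 4OHT libraries. Replicates differed by up to 2.12-fold and the conditions overlapped in both clones. Its log2 fold changes were 0.48 (95% interval -0.45 to 1.42, adjusted p 0.789) in clone 4 and 0.26 (interval -0.68 to 1.19, adjusted p 0.709) in clone 8, so that a doubling remains within both intervals.

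Sp5 (chr2:70474923-70477729, plus strand) is the gene of a repressor that competes at Wnt targets. It had 5.38 and 7.17 CPM in clone 4 vehicle and 9.58 and 7.94 CPM in clone 4 4OHT libraries. It did not overlap between the conditions of clone 4, as for 47.5% of tested genes in either direction. In clone 8 it had 5.55 and 4.55 CPM in vehicle, and the 4OHT libraries were split, with 0.578 CPM (36 counts) in replicate 1 and 11.5 CPM (689 counts) in replicate 2, the lowest and the highest of all 8 libraries. With all libraries, the log2 value was 0.48 (SE 0.89, adjusted p 0.921) in clone 4 and 0.26 (SE 0.89, 95% interval -1.76 to 2.27, adjusted p 0.869) in clone 8. That of clone 8 was 1.19 without 4OHT replicate 1 (adjusted p 0.0240) and -3.12 without 4OHT replicate 2 (adjusted p 0.00661), so that the direction depends on which library is kept. In each of these fits the lone 4OHT library is assumed to vary like the other groups, whose Sp5 replicates differed by 1.21 to 1.33-fold against 19.9-fold here, so that these p-values do not reflect the spread of this group. The same pair of libraries was split, in the same direction, for Tbxt.

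Over both clones together, with clone as a term, edgeR called 0 of the 10 genes (0.00546% of all genes). At an unadjusted p under 0.05 there were 3, against 16.9% of all genes. DESeq2 called 1, Tcf7l1, against 1053 of 18321 genes. Wnt7b averaged 34.7 ± 25.1 CPM over the 4 vehicle libraries and 73.3 ± 16.4 CPM over the 4 4OHT libraries (SD), and its log2 difference was 1.30 (SE 0.45, adjusted p 0.206 in edgeR), while that of Tcf7l1 was -0.71 (SE 0.22, adjusted p 0.179). Averaging the within-clone responses, which does not count the clones' difference as error, called both, where 5.8% of all genes were called. Between the clones, 9 of the 10 differences of response were negative, and Wnt7b was the 1 positive value. The median was -0.43, against 0.05 over all tested genes. Among the 9, those of Axin2, Sp5, Lef1 and Ctnnb1 lay within 1 SE of 0. The 10 values come from the same libraries and are not independent.

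The rest of the pathway was read from 94 further genes, of which 83 were tested. In clone 8, 5 of the 83 rose and 13 fell, where 8% of all genes were called higher and 8.6% lower. In both directions together this is 21.7% of those tested, against 16.6% of all genes. In clone 4 edgeR called 0 and DESeq2 called 3, all higher, against 468 of 18321 genes by DESeq2. There 12 of the 83 had an unadjusted p under 0.05 by edgeR, against 9.9% of all genes. The edgeR calls in clone 8 were lost without vehicle clone 8 replicate 1, while calls remained without replicate 2. Either fit leaves 1 library in that group. In vehicle, 13 of the 83 were higher and 3 lower in clone 8 than in clone 4. That is 19.3% against a background of 8.37%, 4.06% higher and 4.31% lower, again with the same vehicle libraries. That comparison fell to 0 of 18321 genes by edgeR without vehicle clone 4 replicate 1 (3205 at an unadjusted p under 0.05) or without vehicle clone 8 replicate 1 (2522), and to 50 without vehicle clone 4 replicate 2.

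Among 14 other ligand and secretion genes tested, Wnt6, a ligand, rose in clone 8. It stood at 19.4 and 14.2 CPM in clone 4 vehicle and 20.1 and 17.2 CPM in clone 4 4OHT libraries, and at 7.97 and 7.59 CPM in clone 8 vehicle and 35.9 and 31.1 CPM in clone 8 4OHT libraries. As for Wnt7b, the clone 8 vehicle libraries were the lowest and the clone 8 4OHT libraries the highest. Its log2 fold change in clone 8 was 2.11 (SE 0.21, adjusted p 0.00699), and the difference between the clones, 1.96 (SE 0.29), passed the test (adjusted p 0.0256), a call that was lost in 5 of the 8 fits without 1 library, as given beside Rspo3. The summed extraembryonic ectoderm markers given beside Wnt7b are likewise lowest in the clone 8 vehicle libraries, and their part in the Wnt6 values was not tested. Wnt2, at 0 to 0.292 CPM over the 8 libraries, fell from 9 and 5 counts in clone 8 vehicle to 0 and 0 counts in clone 8 4OHT libraries. Set against a floor of 3 counts per library, the vehicle mean was 4.09-fold higher, a ratio that carries the error of these few counts. In clone 4 the log2 fold change of Wnt2 was 1.65 (edgeR adjusted p 0.714).

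Of 21 receptor, co-receptor and R-spondin genes tested, 0 rose and 6 fell in clone 8, where 8% of all genes were called higher and 8.6% lower. Fzd2, a Frizzled receptor, stood at 41.9 and 31.0 CPM in clone 8 vehicle and 14.5 and 9.01 CPM in clone 8 4OHT libraries, a log2 difference of -1.63 (SE 0.27, adjusted p 0.0101), while clone 4 had 13.9 and 16.6 CPM in vehicle. The Frizzled genes Fzd5 (-1.27, adjusted p 0.0229) and Fzd8 (-2.53, adjusted p 0.0160) fell as well. Rspo3, which encodes a secreted enhancer of Wnt signalling, fell from 4.63 and 4.34 CPM to 1.41 and 2.14 CPM in clone 8 (log2 fold change -1.34, adjusted p 0.0219). In clone 4 it stood at 1.93 and 1.82 CPM in vehicle and 5.004 and 4.34 CPM in 4OHT libraries, and the difference between the clones, -2.65 (SE 0.44), passed the test (adjusted p 0.0290). It was the 1 lower call among the 83 genes in that comparison, and Wnt6 the 1 higher. Together they are 2.4% of the 83, near the 2.83% of all genes called, 1.08% higher and 1.75% lower. Both calls were lost without each of the 4 clone 4 libraries and without vehicle clone 8 replicate 1. Each of these fits leaves 1 library in a group. DESeq2 called 13 of the 83, against 1864 of 18321 genes. The summed level of the 18 visceral endoderm markers was 2101 and 1570 CPM in clone 4 vehicle and 4636 and 5432 CPM in clone 4 4OHT libraries, and 3531 and 3443 CPM in clone 8 vehicle and 1389 and 2687 CPM in clone 8 4OHT libraries. By edgeR 1 of the 18, Rhox5, rose and 5 fell in clone 8, against the same 8% and 8.6% of all genes. These calls were lost without vehicle clone 8 replicate 1, and fewer remained without vehicle clone 8 replicate 2. More passed without 4OHT clone 8 replicate 2. Each of these fits leaves 1 library in a group. In clone 4, 0 passed by edgeR and 9 by DESeq2, which called 468 of 18321 genes there. There 17 had an unadjusted p under 0.05 by edgeR, against 9.9% of all genes. In the difference between the clones 10 were lower and 0 higher, where 1.75% of all genes were lower, but 3 without vehicle clone 8 replicate 2, 1 without vehicle clone 4 replicate 1, and 0 without vehicle clone 4 replicate 2, vehicle clone 8 replicate 1 or either clone 4 4OHT library (15 to 16 at an unadjusted p under 0.05). Their part in the Rspo3 values was not tested.

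Among 13 further genes of extracellular and membrane inhibitors tested, 2 rose in clone 8 and 0 fell. That is near the background of 16.6% of all genes called there, 8% higher and 8.6% lower. The 2 were Kremen1 and Kremen2, receptors through which Dkk proteins remove Lrp6 from the membrane. Kremen1 stood at 5.88 and 5.63 CPM in clone 8 vehicle and 13.1 and 13.4 CPM in clone 8 4OHT libraries (log2 fold change 1.199, SE 0.23, adjusted p 0.0132). Kremen2 went from 1.64 and 1.54 CPM to 2.94 and 11.3 CPM (2.16, SE 0.54, adjusted p 0.0285), with most of its level in replicate 2.

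Of 21 cytoplasmic and nuclear components tested, 0 rose and 5 fell in clone 8, against the same 8% and 8.6% of all genes. Axin1, the scaffold of the destruction complex, stood at 47.9 and 36.8 CPM in clone 8 vehicle and 22.4 and 18.3 CPM in clone 8 4OHT libraries, against 23.9 and 22.9 CPM in clone 4 vehicle (log2 fold change in clone 8 -1.06, SE 0.19, adjusted p 0.0113). The others named by the rule were Gsk3a, a kinase that marks β-catenin for breakdown (-1.13, adjusted p 0.0268), Tnks2, which turns over axin (-0.91, adjusted p 0.0209), and Tle1, a corepressor bound by TCF proteins (-1.11, adjusted p 0.0441). As with Fzd2, the clone 8 vehicle libraries were the high ones.

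Among 14 other genes known as Wnt targets, 2 rose in clone 8 and 1 fell. That is near the background of 16.6% of all genes called there, 8% higher and 8.6% lower. Cdx2, which is also an extraembryonic ectoderm marker, stood at 20.6 and 26.8 CPM in clone 8 vehicle and 94.8 and 54.0 CPM in clone 8 4OHT libraries (log2 fold change 1.65, SE 0.28, adjusted p 0.0108). Myc, a growth regulator that many pathways control, stood at 123 and 133 CPM in vehicle and 209 and 265 CPM in 4OHT libraries of clone 8 (0.88, SE 0.17, adjusted p 0.0134). Ccnd1, the gene of cyclin D1, was lower, with 288 and 275 CPM in vehicle and 193 and 145 CPM in 4OHT libraries (-0.74, SE 0.16, adjusted p 0.0201). None of the 14 passed in clone 4 or in the difference between the clones.

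For each of the 10 genes, the tested gene with the most similar profile was found by Pearson's r of log2 CPM over the 8 libraries, as a description. For Wnt7b it was Pip5k1c (r 0.993), for Tcf7l1 Cox7b (0.997), for Tcf7 Cdc73 (0.995) and for Sp5 Zhx3 (0.981). With 8 libraries such values are common: 524 genes exceeded r 0.9 with Wnt7b, 750 with Tcf7l1 and 503 with Tcf7, but 6 with Lef1 and 5 with Axin2.

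Several genes overlap a gene on the other strand, and whether reads were counted by strand is not given in the sources used here. Wnt7b shares 324 exonic bases with AU022754, which held 1 to 16 counts per library, and Tcf7l1 shares 179 with Gm15401, at 0 to 1 count. Lef1 shares 1208 bases with Gm43352, which held 66 to 236 counts.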

How the data were processed

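RNA-seq of mouse epiblast was deposited by the authors as a single table of raw, whole-number counts for Ensembl genes in the 8 libraries, not normalized. STAR 2.5.3a, bcl2fastq 2.19.1 and mm10 are named in the submitters' processing notes; the counting program, annotation and strand setting are not given in the sources used here. Symbols matched 52403 of 52636 identifiers, including all 10 members. Coordinates and exon lengths are those of GENCODE for mm10.

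Genes were kept with filterByExpr (minimum count 10) and scaled by TMM. Tests used edgeR 4.0.16 in R 4.3.3 (glmQLFit, glmQLFTest), with p-values adjusted by Benjamini-Hochberg over 18321 genes and calls at an adjusted p under 0.05. Responses within clones, their difference and the vehicle comparison came from 1 fit of the 4 groups, and the comparison over both clones from a fit with additive clone and treatment terms. An SE is the size of the log2 fold change divided by the square root of F, and 95% intervals use the t distribution with degrees of freedom matched to the p-value. CPM is a count per mega of the TMM-scaled library size, with a prior count of 2 on the log2 scale. Replicates correlated at r 0.955 to 0.981 over genes and differed by more than sampling noise.

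The members and lists were chosen with earlier results of these data known. Other pathway genes could be named at an adjusted p under 0.05 in a within-clone response or the difference, at most the 4 lowest p-values per list and comparison. Marker genes, Egr1, Tbxt and the gene pairs of overlapping strands are named as context. Alternatives were RLE size factors, library totals, other expression filters, a threshold of 0.01, DESeq2 1.42.0, fits of 1 clone, without a clone term or with the replicate number as a block, the mean of the within-clone responses, and leaving out each library. The legacy option of glmQLFit was left on, its default, and turning it off was added after seeing the data. The procedure was tested on simulated data.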

Additional observations from a re-analysis of the deposited data

Results flagged for a closer look

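Sp5 in the 4OHT libraries stood apart in clone 8 replicate 1, at 0.578 CPM, while the other 3 4OHT libraries had 7.94 to 11.5 CPM. The gap to its nearest neighbour took up more of the range, on the log2 scale, than Dixon's limit for 4 samples allows. By the same criterion Tcf7l1 in 4OHT clone 8 replicate 2, at 40.8 CPM, was far from the other 3 4OHT libraries, at 52.7 to 54.2 CPM. With 20 sets of 4 libraries examined, 2 such libraries were found where chance gives about 1.

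The Wnt7b response to 4OHT differed between the clones by a log2 value of 2.30 (adjusted p 0.0331, interaction test of edgeR). Wnt7b was higher in both 4OHT libraries than in both vehicle libraries of clone 8, where 60% of tested genes were separate in either direction. It overlapped between the conditions in clone 4.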

How the results depend on the processing

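Each of the 5 calls among the members was lost under at least 1 alternative. Members called were 0 in clone 4, 2 in clone 8, 1 in the difference, 0 over both clones and 2 between the vehicle groups. DESeq2 gave 1, 4, 2, 1 and 4, and no expression filter gave 1, 4, 5, 2 and 4. Over all genes DESeq2 called 468, 4308, 1864, 1053 and 3064 of 18321. The fit with no expression filter called 728, 4263, 2114, 1337 and 2901 of 30973. At least 10 counts in every library gave 4 in clone 8 and 2 in the difference. RLE size factors gave 2 in the difference, the threshold of 0.01 gave 0 in the difference and 0 between the vehicle groups, and the legacy option off gave 4 in clone 8. Clone 8 fitted alone gave 0 (edgeR, adjusted p 0.0579 for both Wnt7b and Tcf7l1; DESeq2 above called 4). The mean of the within-clone responses gave 2 over both clones. Leaving out 1 library gave 0 to 0 in clone 4, 0 to 4 in clone 8, 0 to 3 in the difference, 0 to 0 over both clones and 0 to 3 between the vehicle groups. With the replicate block the counts were 0, 3, 1, 0 and 3, the added gene being Tcf7. The deviations of replicate 1 from its group mean correlated between groups at r -0.03 to 0.09, which shows no pairing by replicate number. The cause was not tested for any of these changes in the counts. Library totals shifted the median of all genes by 0.12 in clone 8 and 0.11 in the difference. Signs turned for values near 0: Ctnnb1 in clone 8 by library totals (0.0888), Wnt3 in clone 4 (-0.0043) and Sp5 in clone 8 (-0.15) with the block, Lef1 in clone 8 fitted alone (-0.0056), and Sfrp1 over both clones with no clone term (-0.0255). Leaving out 1 library also turned signs, with log2 ranges in clone 4 of Wnt3 -0.19 to 0.22, Lef1 -0.0617 to 0.48, Wnt7b -0.17 to 0.61, Tcf7 -0.012 to 0.15; in clone 8 of Lef1 -0.11 to 0.12, Tcf7l2 -0.0625 to 0.23, Ctnnb1 -0.27 to 0.18, Axin2 -0.22 to 0.88, Sp5 -3.12 to 1.19; in the difference of Axin2 -0.84 to 0.40, Lef1 -0.48 to 0.0614, Ctnnb1 -0.42 to 0.0267, Sp5 -3.60 to 0.71; over both clones of Lef1 -0.025 to 0.19, Sfrp1 -0.23 to 0.26, Ctnnb1 -0.0254 to 0.16, Sp5 -0.61 to 0.77; between the vehicle groups of Axin2 -0.47 to 0.76, Lef1 -0.37 to 0.18. Of the 83 other pathway genes, 2 passed in the difference between clones by edgeR, where 2.83% of all genes were called. DESeq2 called 13 of them, 4 higher and 9 lower, against 1864 of 18321 genes. The lowest count of a member in any library was 36.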
